A study of Mus musculus with 6 samples.

Results

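The genes of DNA methylation and demethylation were examined in PRO-seq libraries of muscle stem cells (MuSCs). The group comprises 8 genes, found by symbol among the 14546 genes listed. *Dnmt1* and *Uhrf1* serve maintenance methylation, and *Uhrf2* is the paralogue of *Uhrf1*. *Dnmt3a* and *Dnmt3b* serve de novo methylation, and *Tet1*, *Tet2* and *Tet3* the oxidation of 5-methylcytosine. The membership rule used gene symbols and no measured value, but the members were chosen with earlier results of these data known. PRO-seq maps engaged RNA polymerases by labelling nascent RNA with biotin in a run-on reaction, so the values describe transcription and not mRNA or protein amounts. The libraries came from proliferating MuSCs of 3 Ctrl samples, labelled Pax7CreERT/Suv4-20h1WT, and 3 Kmt5b sKO samples, labelled Pax7CreERT/Suv4-20h1KO. *Suv4-20h1* is an older name of *Kmt5b*, which encodes a histone H4 lysine 20 methyltransferase. Both groups carry the tamoxifen-inducible Cre under control of *Pax7*, so the deletion is directed to *Pax7*-expressing cells. Per the study's methods, the cells were purified from limb and trunk muscle and grown in culture. The labels give neither age nor sex of the mice, nor do they tie a library to one mouse, so p-values measure the spread between these samples.

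DNA methylation is copied after replication. UHRF1 binds hemimethylated CpG sites behind the replication fork and recruits DNMT1, the maintenance methyltransferase, which methylates the new strand. UHRF2 is a paralogue of UHRF1 with a similar domain layout that does not replace it in maintenance. DNMT3A and DNMT3B set methyl groups on unmethylated DNA. The TET dioxygenases oxidise 5-methylcytosine, and the oxidised bases are lost through replication or removed by base excision repair. *Dnmt1* and *Uhrf1* are textbook genes of the dividing cell, and E2F transcription factors drive many genes of that class.

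All 8 genes had RefSeq promoter windows of GRCm38.p6, which run from 250 bases before to 50 bases after an annotated start, and 13 windows belonged to them. The windows were searched on both strands for 4 common forms of the E2F core, the forms TTCCCGC, then TTCGCGC, then TTGGCGC, then also TTGCCGC, which do not contain one another but may overlap. A match was present in 4 of the 13 windows and in 9.57% of all 32851 windows. Counted by gene, windows of 3 of the 8 members held a match (*Dnmt1*, *Uhrf1* and *Uhrf2*), against 1850 of 9564 tested genes with a window (19.3%). Each form searched holds a CpG, and the GC content of the member windows ran from 51.3% to 82.3%, against a median of 52.7% over all windows. The shares were not matched for base composition or for the number of windows per gene. No match was found in the windows of *Dnmt3a*, *Dnmt3b*, *Tet1*, *Tet2* or *Tet3*, which says only that these letters are not in these windows. The stretches upstream of *Uhrf1* and *Uhrf2* are shown because they hold a match close to the start, and that of *Tet2* is shown as one without a match. Capitals mark the match, and each stretch ends at the base before the annotated start.
*Uhrf1*, chr17:56303171-56303320, plus strand: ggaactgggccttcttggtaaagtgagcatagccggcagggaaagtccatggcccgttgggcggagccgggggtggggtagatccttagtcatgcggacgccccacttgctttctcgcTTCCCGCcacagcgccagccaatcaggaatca
*Uhrf2*, chr19:30030363-30030512, plus strand: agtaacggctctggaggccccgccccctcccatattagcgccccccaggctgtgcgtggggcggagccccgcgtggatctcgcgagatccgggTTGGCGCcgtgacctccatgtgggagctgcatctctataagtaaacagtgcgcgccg
*Tet2*, chr3:133544391-133544540, minus strand: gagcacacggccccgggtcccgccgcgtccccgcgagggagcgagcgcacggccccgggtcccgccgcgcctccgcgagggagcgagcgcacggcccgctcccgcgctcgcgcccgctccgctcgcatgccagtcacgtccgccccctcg

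*Dnmt1* held 3 matches, all in the window of the start at position 20952623 of chromosome 9, which lies 356 nt downstream of the start listed for the gene. The first lies in the first exon of *Dnmt1-201* before the coding sequence, the second in the coding part of that exon, and the third in the first exon of *Dnmt1-203*. *Uhrf1* held a further match 184 bases before its start at 56304313, within an intron of the listed transcript. Each of these matches is shown with the bases around it, in the orientation of the gene.
*Dnmt1*, chr9:20952826-20952852, minus strand: gtttccgcgcGCGCGAAaaagccgggg
*Dnmt1*, chr9:20952765-20952791, minus strand: caagatgccaGCGCGAAcagctccagc
*Dnmt1*, chr9:20952574-20952599, minus strand: ggggcagcgtTTGGCGCgggctgtgc
*Uhrf1*, chr17:56304119-56304145, plus strand: cgagtcgggtTTCGCGCgcccaggcgt
CpG content also differed among the windows. The ratio of observed to expected CpG ran from 0.101 at the farthest upstream start of *Dnmt1* to 1.17 at *Tet2* over the 13 windows, against a median of 0.384 over all windows. It was 0.825 at *Uhrf2*, 0.472 and 0.959 at the first and second start of *Uhrf1*, and 0.91 at the *Dnmt1* start that held the matches.

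The deposited values cover a TSS region, the first 400 nt of 1 isoform per gene, in RPM, which sets all libraries to the same total, and the gene body from there to the transcript end, in TPM, which also divides by length. Reads recovered from the values came to between 926904 and 3246088 per library in the TSS regions and between 7425433 and 16249797 in the gene bodies. Kmt5b sKO replicate 2 was the shallowest library in both regions. The targeted gene gave no check of the labels, since *Kmt5b* held 30.6 to 38.5 TPM in the gene body of the Ctrl libraries and 35.0 to 42.6 TPM in that of the Kmt5b sKO libraries. None of the 9 MuSC and myoblast markers tested passed the threshold in either region, and *Myod1* held 1091 TPM in Ctrl, against 1179 TPM in Kmt5b sKO gene bodies. Of the 9, 4 were higher and 5 lower in Kmt5b sKO gene bodies. *Des* had a log2 fold change of 0.73, *Pax7* of -0.41 and *Notch3* of -0.67. With 3 libraries per group, not passing does not show that these markers were unchanged. Of 11 markers of other cell types, 8 were listed, and among these the endothelial marker *Cdh5* and the fibroblast markers *Pdgfra* and *Dpt* had group means under 1 TPM. The macrophage marker *Cd68* stood apart at 314 TPM in Ctrl, against 323 TPM in Kmt5b sKO gene bodies. *Ptprc* and *Adgre1*, the other immune cell markers of the 11, were not among the listed genes.

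Among the 8 members, the gene body values separated highly from weakly transcribed genes. Means over the 6 libraries were 32.4 TPM for *Uhrf2*, 28.7 TPM for *Dnmt1*, 26.6 TPM for *Tet3*, 22.5 TPM for *Uhrf1*, 16.9 TPM for *Tet2*, 10.8 TPM for *Dnmt3a*, 2.40 TPM for *Tet1* and 2.10 TPM for *Dnmt3b*. The ranges of *Tet2* and *Dnmt3a* did not overlap, nor did those of *Dnmt3a* and *Tet1*, and all 6 libraries kept these orders. Each neighbouring pair from *Uhrf2* down to *Tet2* overlapped in range, as did *Tet1* and *Dnmt3b*. The order of the leading genes was not the same in both groups. In Ctrl MuSCs, *Dnmt1* (36.1 TPM ± 9.75, SD, n = 3), *Uhrf2* (35.0 TPM ± 1.87) and *Uhrf1* (31.6 TPM ± 6.71) came first and overlapped in range, and *Tet3* followed at 25.2 TPM ± 1.49. In Kmt5b sKO MuSCs, *Uhrf2* (29.8 TPM ± 1.96) and *Tet3* (28.0 TPM ± 1.15) came first, and both exceeded *Dnmt1* (21.3 TPM ± 4.44) in every library. *Uhrf1* fell behind *Tet2* there, with 13.5 TPM ± 2.82 against 17.5 TPM ± 1.64, in all 3 libraries.

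*Uhrf1* was the member that passed the threshold, in both regions. Gene body values of *Uhrf1* were 37.6, 32.8 and 24.3 TPM across Ctrl replicates 1 to 3, against 10.5, 13.9 and 16.1 TPM across Kmt5b sKO replicates 1 to 3. The groups did not overlap, and the lowest Ctrl library, replicate 3, lay above all Kmt5b sKO libraries. The log2 fold change was -1.20 (SE 0.22, adjusted p = 0.0691, limma with Benjamini-Hochberg adjustment over 12451 genes), a gene body value 2.29-fold lower. The TSS region of *Uhrf1* held 83.0, 76.4 and 89.0 RPM in the Ctrl libraries, against 19.0, 42.3 and 46.9 RPM in the Kmt5b sKO libraries. Again the groups did not overlap, and Kmt5b sKO replicate 1 was the lowest in both regions. The log2 fold change in the TSS region was -1.29 (SE 0.29, adjusted p = 0.0484, limma). The values rested on 58 to 470 reads per library in the TSS region and on 180 to 1086 reads in the gene body.

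The call of *Uhrf1* depended on the libraries included. In the gene body, the adjusted p from limma rose to 0.218 and 0.115 when Ctrl replicate 1 or 2 was left out, and to 0.211, 0.161 or 0.215 when Kmt5b sKO replicate 1, 2 or 3 was. In the TSS region the adjusted p was 0.263 without Ctrl replicate 1, and without Kmt5b sKO replicate 1 it was 0.235 with a log2 fold change of -0.89. Over all tested genes, 0 were called in the gene body without Ctrl replicate 1 or any one Kmt5b sKO library, and 261 without Ctrl replicate 2. In the TSS region 1 was called without Ctrl replicate 1 and 16 without Kmt5b sKO replicate 1. With all libraries, 372 and 207 genes were called in the gene body and the TSS region. The fold change of *Uhrf1* remained below 0 in every one of these fits. The listed transcript of *Uhrf1* runs from 56303321 to 56323486 on the plus strand of chromosome 17 (GRCm38), and annotated starts at 56304313, 56304348 and 56304407 lie inside its gene body, so polymerases from these starts are counted there.

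*Dnmt1* was lower in Kmt5b sKO MuSCs in both regions without passing the threshold. Gene body values were 43.3, 40.1 and 25.0 TPM across Ctrl replicates 1 to 3, against 16.2, 24.4 and 23.2 TPM across Kmt5b sKO replicates 1 to 3. The groups did not overlap, but Ctrl replicate 3 lay close to the upper Kmt5b sKO libraries. The log2 fold change was -0.73 (SE 0.25, adjusted p = 0.215, limma). Without Ctrl replicate 3, *Dnmt1* passed the threshold, with a log2 fold change of -0.97 (adjusted p = 0.0588, limma; up to 0.487 without other single libraries, and 0.023 to 0.397 under the other alternatives). The TSS region of *Dnmt1* held 86.9, 62.1 and 69.0 RPM in Ctrl, against 30.8, 56.8 and 46.0 RPM in Kmt5b sKO libraries, a log2 fold change of -0.73 (SE 0.25, adjusted p = 0.21, limma). These groups did not overlap either. *Dnmt1-201* runs from 20907209 to 20952979 on the minus strand of chromosome 9, and its TSS region from 20952579 also holds the starts of *Dnmt1-203*, *Dnmt1-205* and *Dnmt1-207*. The first exon of *Dnmt1-201* and part of the first intron fall in this region, so reads of all these starts contribute to the value.

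*Uhrf2*, which shares its domain layout with *Uhrf1*, moved less. Its TSS region was the most occupied of the 8 genes, with 276, 202 and 284 RPM in Ctrl, against 147, 184 and 155 RPM in Kmt5b sKO libraries. All Kmt5b sKO libraries lay below all Ctrl libraries, and the log2 fold change was -0.64 (SE 0.22, adjusted p = 0.203, limma). Without Ctrl replicate 2 it passed the threshold, with a log2 fold change of -0.79 and an adjusted p of 0.0766 from limma, where the fits without other single libraries reached 0.617 and the other alternatives gave 0.0644 to 0.428. The gene body held 33.8, 37.2 and 34.1 TPM in Ctrl, against 31.9, 29.3 and 28.0 TPM in Kmt5b sKO libraries. The groups were again apart, by less than 2 TPM, with a log2 fold change of -0.23 (SE 0.12, adjusted p = 0.41, limma). The ratio of *Uhrf2* to *Uhrf1* in the gene body was 0.901, 1.14 and 1.40 in the Ctrl libraries, against 3.05, 2.11 and 1.74 in the Kmt5b sKO libraries. This ratio was not planned and largely restates the *Uhrf1* values.

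**Figure D1:**
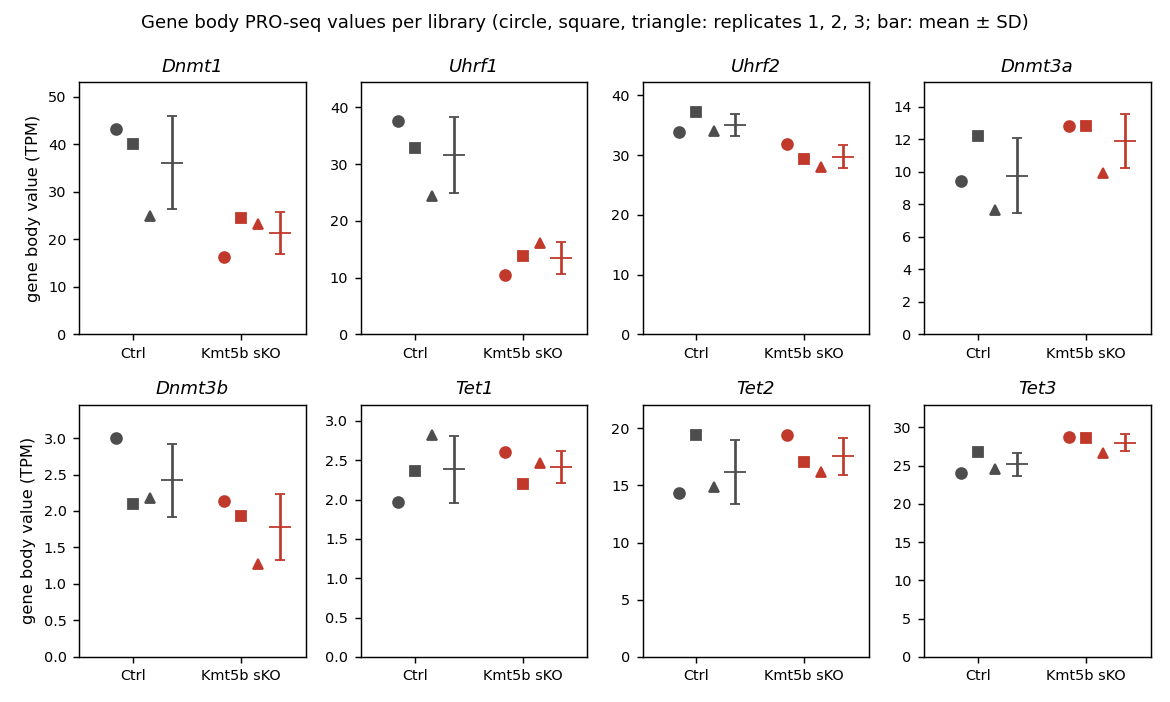
Gene body PRO-seq value in TPM for the 8 members, in 3 Ctrl libraries (grey) and 3 Kmt5b sKO libraries (red), with the mean ± SD beside the points; each panel has its own axis from 0. *Uhrf1*, *Dnmt1* and *Uhrf2* had all Kmt5b sKO libraries below all Ctrl libraries, while the groups overlapped for the other 5 genes.

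The de novo methyltransferases differed in level. *Dnmt3a* held 9.40, 12.2 and 7.66 TPM in Ctrl gene bodies, against 12.8, 12.8 and 9.94 TPM in Kmt5b sKO gene bodies. The groups overlapped, and the log2 fold change was 0.28 (SE 0.20, adjusted p = 0.579, limma). The TSS region of *Dnmt3a* had 3.98 to 5.17 RPM in Ctrl, against 4.60 to 9.24 RPM in Kmt5b sKO libraries, from 9 to 22 reads per library, and the log2 fold change was 0.54 (SE 0.43, adjusted p = 0.738, limma). The listed *Dnmt3a* transcript starts at 3807030 on chromosome 12, and several further starts are annotated within the gene body. Among them are *Dnmt3a-208* at 3861021 and *Dnmt3a-203* at 3891744, 84714 nt downstream, so the gene body value sums over all of these starts. Other starts lie upstream, such as *Dnmt3a-206* at 503 nt, and polymerases from there pass through the listed TSS region.

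*Dnmt3b* was weakly transcribed along its gene body, with 3.0, 2.09 and 2.18 TPM in Ctrl, against 2.14, 1.93 and 1.27 TPM in Kmt5b sKO libraries. The groups overlapped, with a log2 fold change of -0.37 (SE 0.24, adjusted p = 0.537, limma). Its TSS region held 15.9 to 19.9 RPM in Ctrl, against 14.7 to 23.1 RPM in Kmt5b sKO libraries, and the log2 fold change was -0.02 (SE 0.30, adjusted p = 0.989, limma). The sign of this value changed when single libraries were left out.

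Of the TET genes, *Tet3* was the most transcribed, followed by *Tet2*. The TSS region of *Tet3* held 28.1, 36.8 and 31.4 RPM in Ctrl, against 62.0, 46.2 and 55.2 RPM in Kmt5b sKO libraries. All Kmt5b sKO libraries lay above all Ctrl libraries, but the log2 fold change of 0.75 (SE 0.24, adjusted p = 0.161, limma) did not pass the threshold. In the gene body, *Tet3* held 24.1, 26.8 and 24.6 TPM in Ctrl, against 28.7, 28.6 and 26.7 TPM in Kmt5b sKO libraries, where the groups overlapped by Ctrl replicate 2 and Kmt5b sKO replicate 3. The log2 fold change there was 0.15 (SE 0.12, adjusted p = 0.612, limma). Further starts of *Tet3* are annotated 14717 and 17409 nt upstream of the listed one, and polymerases from these starts pass through the listed TSS region.

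*Tet2* held 14.3, 19.4 and 14.8 TPM in Ctrl gene bodies, against 19.4, 17.1 and 16.2 TPM in Kmt5b sKO gene bodies. Its groups overlapped, with a log2 fold change of 0.12 (SE 0.16, adjusted p = 0.793, limma). The TSS region of *Tet2* held 15.5 to 19.9 RPM in Ctrl, against 16.5 to 27.2 RPM in Kmt5b sKO libraries, a log2 fold change of 0.34 (SE 0.30, adjusted p = 0.766, limma).

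*Tet1* was not tested, as the mean of its TSS region, 0.397 RPM, was under the minimum of 0.5. Each Ctrl library held 1 read in its TSS region, while Kmt5b sKO replicates 1 and 2 held 0 and replicate 3 held 3. A count of 0 allows up to 0.983 RPM in Kmt5b sKO replicate 1 and 1.98 RPM in replicate 2, for counting error only. The gene body was covered, with 1.97, 2.36 and 2.82 TPM in Ctrl, against 2.60, 2.20 and 2.46 TPM in Kmt5b sKO libraries. The listed TSS region of *Tet1* lies inside a coding exon, and other starts are annotated up to 28982 nt upstream, so it does not describe initiation at these. With no filter on low values, the log2 fold change in the gene body was 0.03 (SE 0.19, adjusted p = 0.972, limma).

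**Figure D2:**
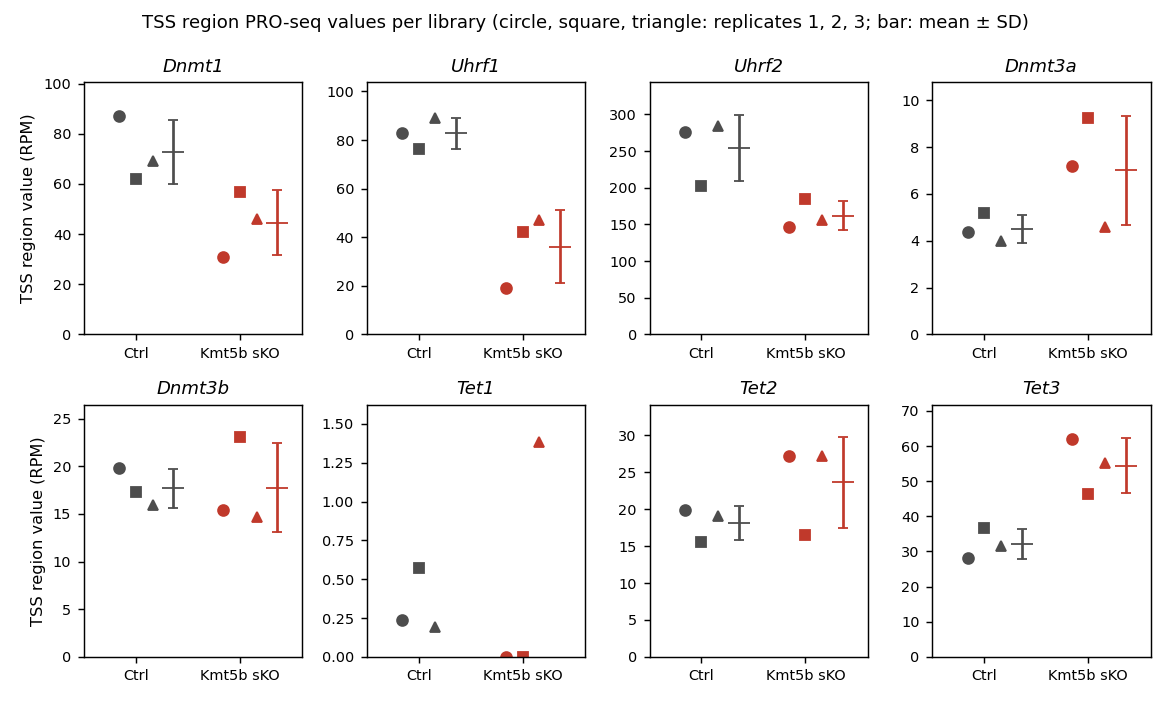
TSS region PRO-seq value in RPM for the 8 members, in 3 Ctrl libraries (grey) and 3 Kmt5b sKO libraries (red), with the mean ± SD beside the points except for *Tet1*, which rests on 0 to 3 reads; each panel has its own axis from 0. *Dnmt1*, *Uhrf1* and *Uhrf2* were lower and *Tet3* was higher in every Kmt5b sKO library.

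Counted over the 7 tested members, 1 passed the threshold of an adjusted p under 0.1 in the gene body, against 2.99% of the 12451 genes tested. In the TSS region 1 of 7 passed, against 1.66% of the genes tested. The groups did not overlap for 3 members in the gene body and for 4 in the TSS region, where 21.4% and 15.6% of all tested genes did not overlap. At an unadjusted p under 0.05, the counts were 2 of 7 members in the gene body, against 15.9% of all genes, and 4 of 7 in the TSS region, against 11.0%. The median log2 fold change over the members was -0.23 in the gene body and -0.02 in the TSS region, beside 0.02 and 0.08 over all genes tested.

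The pausing index, the TSS value in RPM over the gene body value in TPM, was compared within each gene, since its scale has no absolute meaning. *Tet3* was the member whose groups did not overlap, with 1.17, 1.37 and 1.28 in Ctrl, against 2.16, 1.61 and 2.07 in Kmt5b sKO libraries. The log2 fold change was 0.61 (SE 0.24), but it did not survive adjustment over the 11698 genes with an index (unadjusted p = 0.032, adjusted p = 1.0, limma). No member passed, and 0 genes did in all (0.00%); 3.86% of genes had an unadjusted p under 0.05, and 9.02% had groups that did not overlap. *Uhrf1* had 2.21, 2.33 and 3.66 in Ctrl, against 1.82, 3.04 and 2.92 in Kmt5b sKO libraries, a log2 fold change of -0.08 (SE 0.30), and *Dnmt1* had a log2 fold change of 0.01 (SE 0.27). For both genes the fold changes of the TSS region and of the gene body differed by less than their standard errors. *Uhrf2* had a log2 fold change of -0.40 (SE 0.26) and *Dnmt3b* of 0.44 (SE 0.28), with overlapping groups.

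**Figure D3:**
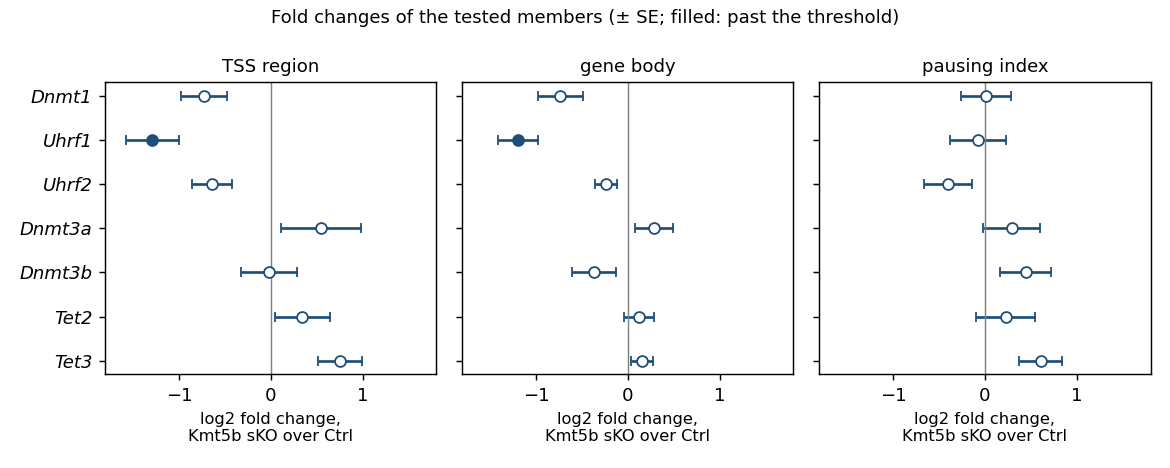
Log2 fold change of Kmt5b sKO over Ctrl (x axis) with its standard error, for the 7 tested members in the TSS region, the gene body and the pausing index; filled points passed the threshold of an adjusted p under 0.1. *Uhrf1* is filled in the TSS region and the gene body, and the pausing index holds no filled point.

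Shares were taken of the summed gene body TPM of the 8 members in each library. *Dnmt1*, *Uhrf1* and *Uhrf2* together held 68.5%, 63.6% and 61.6% in the Ctrl libraries, against 47.2%, 51.9% and 54.4% in the Kmt5b sKO libraries. *Dnmt1* and *Uhrf1* without *Uhrf2* held 48.3%, 42.1% and 36.4% in Ctrl, against 21.5%, 29.4% and 31.7% in Kmt5b sKO libraries. The TET genes held 24.1%, 28.1% and 31.2% in Ctrl, against 40.8%, 36.7% and 36.6% in Kmt5b sKO libraries. Shares of one sum move against each other. The sum itself was 167, 173 and 136 TPM in Ctrl, against 124, 130 and 124 TPM in Kmt5b sKO libraries, and the summed TET value was 40.4, 48.6 and 42.2 TPM in Ctrl, against 50.7, 47.9 and 45.3 TPM in Kmt5b sKO libraries, with overlapping groups. The ratio of *Tet3* to *Dnmt1* was 0.556, 0.669 and 0.981 in Ctrl, against 1.77, 1.17 and 1.15 in Kmt5b sKO libraries. It was below 1 in all Ctrl libraries and above 1 in all Kmt5b sKO libraries. This ratio was not planned and is 1 of many possible pairs. It largely restates the *Dnmt1* values, whose groups did not overlap and which did not pass the threshold.

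Genes that work with the members were described as lists. Among 9 partners of maintenance methylation, 4 fell in the gene body and none rose, where 1.38% of all tested genes were called lower and 1.61% called higher. These were *Pcna*, the replication clamp that binds DNMT1, from 86.4 TPM ± 9.43 to 37.6 TPM ± 10.8 (SD, n = 3 each; log2 fold change -1.23, adjusted p = 0.0743, limma), *Lig1*, the ligase of lagging strand synthesis (-1.22, adjusted p = 0.0655), *Hells*, a chromatin remodeller needed for methylation of repeats (-1.11, adjusted p = 0.0639), and *Cdca7*, the partner of HELLS (-0.78, adjusted p = 0.0839). In the TSS region 3 fell, where 0.731% of all tested genes were called lower and 0.932% called higher. *Pclaf*, which encodes a PCNA-binding protein, went from 62.0 to 18.4 RPM (log2 fold change -1.79, adjusted p = 0.0289), and *Pcna* (-0.99) and *Cdca7* (-1.0) were the others. The list median was -0.84 in the gene body and -0.71 in the TSS region. The S phase list described below had medians of -0.91 and -0.86, so a fall of this size was not particular to these partners. The list of partners was also chosen with earlier results of these data known. Of the 5 partners not called in the gene body, *Pclaf* (-1.10, adjusted p = 0.125, limma) and *Cdca7l* (-0.84, adjusted p = 0.14) had values in the range of the called genes. *Usp7*, a deubiquitinase that binds UHRF1 and DNMT1, was at 0.18, the insulator protein gene *Ctcf* at -0.32 and *Dmap1* at -0.18. In the gene body, the groups of 7 of the 9 partners were apart with lower Kmt5b sKO values, and those of *Usp7* with higher values. *Dmap1* overlapped, and 21.4% of all tested genes had groups apart there. In the TSS region the groups of 3 partners were apart, all lower, against 15.6% of all tested genes. The counts of the list depended on the libraries included, as did those over all tested genes. No gene of the list was called in the gene body without Ctrl replicate 1 or without Kmt5b sKO replicate 1, 2 or 3. Of all tested genes, 0 were called in these fits either. Without Ctrl replicate 2, 2 genes of the list were called, against 261 over all tested genes. For the TSS region the list count was 0 without Ctrl replicate 1, where 1 of all tested genes was called. It was 1 without Ctrl replicate 3, Kmt5b sKO replicate 1 or Kmt5b sKO replicate 3, where 270, 16 and 46 of all tested genes were called. With all libraries kept, the list count was 1 at a pseudocount of 0.1. It was 0 with no filter on low values or with eBayes without a trend, where 0 of all tested genes were called.

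The lists around de novo methylation and the readers held no call. Of 5 tested partners of de novo methylation, 0 passed in either region at the adjusted p, and 0 had an unadjusted p under 0.05 by limma; edgeR and DESeq2 on recovered reads also called 0. The histone H3 lysine 36 methyltransferases *Nsd1* and *Setd2* had gene body log2 fold changes of -0.02 and 0.08, and the corepressor *Trim28* of -0.05. Of 8 readers of methylated CpG, 6 were tested and none passed, with gene body values of -0.05 for *Mbd3*, 0.39 for *Zbtb38* and -0.26 for *Mbd2*. *Zbtb38* had an unadjusted p under 0.05 in the gene body, and none of the 6 did in the TSS region; edgeR and DESeq2 called 0 of them. Genes of the list on chromosome X were not tested.

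Of 15 partners of the TET enzymes and genes of base excision, 13 were tested. Of these 1 passed in each region, where 2.99% of all tested genes did in the gene body and 1.66% in the TSS region. *Neil3*, a DNA glycosylase, fell in both regions, from 7.08 TPM ± 1.86 to 2.74 TPM ± 0.537 in the gene body (SD, n = 3 each; log2 fold change -1.21, adjusted p = 0.0764, limma) and from 38.4 to 10.6 RPM in the TSS region (-1.87, adjusted p = 0.04). In the gene body the list held 0 calls without Ctrl replicate 1, without Ctrl replicate 2 or without any one Kmt5b sKO library. Over all tested genes, the gene body count of these fits was 0, except for 261 without Ctrl replicate 2. In the TSS region the list held 0 calls without Ctrl replicate 1 or Kmt5b sKO replicate 1, where 1 and 16 of all tested genes were called. Without Ctrl replicate 3 the list held 4 calls in the gene body and 2 in the TSS region. All tested genes then held 836 and 270 calls, against 372 and 207 with all libraries. The glycosylase gene *Tdg*, whose product removes oxidised methylcytosine, had a gene body log2 fold change of 0.13 (adjusted p = 0.689, limma). The 3 genes with the highest gene body values, *Gadd45g*, *Gadd45a* and *Gadd45b*, had log2 fold changes of 0.23, 0.46 and 0.47 there and did not pass. In the TSS region they were at 0.24, 0.73 and 0.61 and did not pass either. Over the list, the groups of 2 genes were apart and higher and of 1 lower in the gene body, against 21.4% of all tested genes apart. For the TSS region these counts were 3 and 1, against 15.6%. Among 5 genes of the methyl donor cycle none passed with limma on all libraries, while edgeR and DESeq2 each called 1 (*Mtr*) in the gene body and 0 in the TSS region. Over all tested genes, edgeR called 748 and DESeq2 called 1296 in the gene body. Without Ctrl replicate 3, limma called 1 of the 5 in the gene body as well. The gene body log2 fold changes from limma were 0.11 for *Mat2a* and 0.16 for *Mat2b*. *Mtr* and *Ahcy*, picked out after their values were seen, were lower in all Kmt5b sKO libraries in both regions, with gene body log2 fold changes of -0.63 and -0.49 (adjusted p = 0.238 and 0.249, limma).

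Genes of the cell cycle moved beside *Dnmt1* and *Uhrf1*. All 25 S phase genes had a lower gene body value in Kmt5b sKO MuSCs, with a median log2 fold change of -0.91, and 12 fell, among them *Rrm1*, *Rrm2*, *Mcm3*, *Mcm5*, *Mcm6*, *Cdc6*, *Ccne2*, *Fen1*, *Prim1*, *Chaf1b* and *Gins1*. Of 14 genes of G2 phase and mitosis, all were lower, with a median of -1.07, and 7 fell: *Cdk1*, *Top2a*, *Ccna2*, *Kif11*, *Cenpe*, *Cenpf* and *Bub1*. Over all tested genes, 1.38% were called lower there. For the TSS region, 7 and 4 genes of these lists were called lower, against 0.731% of all tested genes. The lists were chosen with earlier results known, and both gene body counts became 0 without Ctrl replicate 1 or without Kmt5b sKO replicate 1, 2 or 3. Without Ctrl replicate 2 they were 4 and 2, and without Ctrl replicate 3 they were 20 and 12. Over all tested genes, the gene body count was 0 without Ctrl replicate 1 or any one Kmt5b sKO library. It was 261 without Ctrl replicate 2 and 836 without Ctrl replicate 3, against 372 with all libraries. The TSS counts of both lists also depended on the libraries included. Both were 0 without Ctrl replicate 1 or Kmt5b sKO replicate 1, and 8 and 6 without Ctrl replicate 2. They were 6 and 11 without Ctrl replicate 3, 4 and 0 without Kmt5b sKO replicate 2, and 3 and 2 without Kmt5b sKO replicate 3. They were 0 with no filter on low values or with eBayes without a trend, where 0 of all tested genes were called. Over all tested genes, the TSS count was 1 without Ctrl replicate 1 and 16 without Kmt5b sKO replicate 1. The mean log2 gene body value of the S phase list was 4.87, 4.65 and 4.47 in Ctrl, against 3.52, 3.93 and 3.97 in Kmt5b sKO libraries, so Kmt5b sKO replicate 1 was lowest, as it was for *Uhrf1* and *Dnmt1*. Of 10 differentiation markers, 0 passed in the gene body by limma and 4 had an unadjusted p under 0.05, against 15.9% of all tested genes. With edgeR and DESeq2 on recovered reads, 1 and 4 of them passed there, where 748 and 1296 of all tested genes did. Gene body values of the markers were above Ctrl for 9 of 10, where 53.8% of all tested genes were. Their median log2 fold change was 0.66, which was 0.32 without Ctrl replicate 3. Summed values were 2360 to 4382 TPM in Ctrl, against 4428 to 5866 TPM in Kmt5b sKO libraries. In the TSS region 1 marker passed (*Mef2c*, log2 fold change 1.32, adjusted p = 0.0718, limma), where 0.932% of all tested genes were called higher. An unadjusted p under 0.05 was reached there by 7 of 10 markers, against 11.0% of all tested genes. This TSS call count ranged from 0 to 3 when single libraries were left out. It was 0 with no filter on low values or with eBayes without a trend. In these bulk samples, fewer cells of a type and less transcription per cell cannot be told apart, and the part of the cell cycle genes in the values of *Dnmt1* and *Uhrf1* was not tested.

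**Figure D4:**
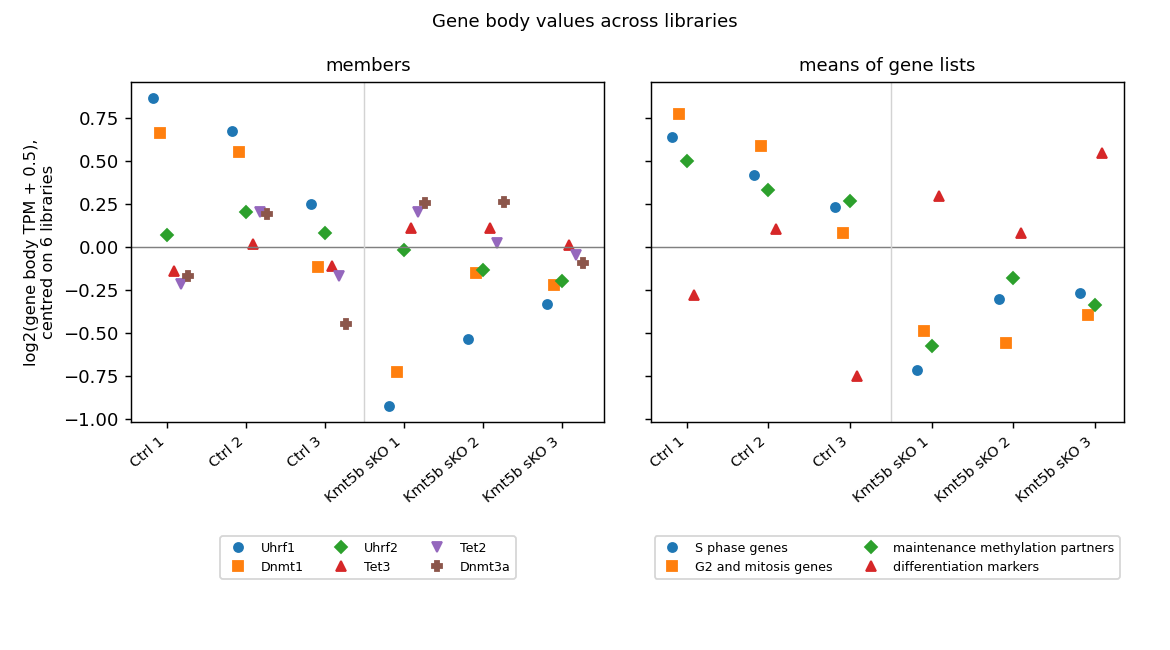
Gene body values as log2(TPM + 0.5), each centred on its mean over the 6 libraries, for 6 members (left) and for the means of 4 gene lists (right), by library (x axis). *Uhrf1* and the S phase and mitosis lists were above their means in the 3 Ctrl libraries and below them in the 3 Kmt5b sKO libraries, whereas *Dnmt1* was slightly below its mean in Ctrl replicate 3.

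The tested genes whose pattern over the 6 libraries was most like that of each member were found by the root mean square difference of centred log2 gene body values. For *Uhrf1* these were *Rad54l* (0.061) and *Nuf2* (0.0719), against a median of 0.69 over the other 12450 tested genes. For *Dnmt1* they were *Cenpn* (0.0592) and *Timeless* (0.1), against a median of 0.522. *Uhrf1* stood at 0.255 from *Dnmt1*, and 2.33% of tested genes were closer to *Dnmt1* than that. The distances are descriptions over 6 libraries that share depth and group. Closest to *Uhrf2* were *Stxbp5* (0.0314) and *Mllt10* (0.0319), closest to *Dnmt3a* were *Limk1* (0.0682) and *Tpt1* (0.0692), and closest to *Dnmt3b* were *Zfp808* (0.0844) and *Mrpl39* (0.0873). For *Tet2* they were *Atp2c1* (0.0396) and *Sfxn3* (0.0438), and for *Tet3* *Atg4b* (0.0161) and *Sestd1* (0.0182). *Tet2* and *Tet3* were 0.103 apart.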

How the data were processed

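PRO-seq was analysed in 3 Ctrl and 3 Kmt5b sKO libraries, grouped by the deposited genotype labels. The authors used Trimmomatic 0.39 for trimming, STAR 2.6.1d for alignment to GRCm38 and Picard 2.18.16 for the removal of duplicates, and they counted sense-strand reads. FastQC 0.11.8 is also named in the submitters' processing notes. Removal of duplicates by position can lower the highest TSS values, and the choice of 1 isoform per gene fixes which start is measured. The authors deposited RPM values for the TSS region, although the file header names TPM, and TPM values for the gene body; every TSS region spans 400 nt, and the planned test was kept. Low TSS values were whole multiples of 1 read (within 0.1 read) in 100% of cases, as were low gene body values of genes with bodies under 2000 nt.

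The 12451 autosomal genes whose means reached 0.5 in each region entered limma 3.58.1 (R 4.3.3; lmFit, eBayes with trend) as log2(value + 0.5). Genotype was the sole factor. The threshold was an adjusted p (Benjamini-Hochberg) below 0.1. The pseudocount shrinks the fold changes of low values. The pausing index was tested as a log2 ratio without pseudocount. Alternatives included edgeR 4.0.16 and DESeq2 1.42.0 on recovered reads, pseudocounts of 0.1 and 1, other filters, equal library medians, a replicate block and leaving out each library. The scripts were tested on simulated data. Members and gene lists were chosen with earlier results of these data known. All 8 members are named; from the pathway lists, genes past the threshold and up to 3 more with the highest gene body mean; from the S phase and mitosis lists, genes past the threshold in the gene body; and the 2 genes most like each member. Others are named as markers. A few genes within this rule are left unreported here. Promoter windows were from RefSeq (GRCm38.p6) and transcripts from Gencode. Python 3.11.15, numpy 2.4.6, pandas 2.3.3 and matplotlib 3.10.9 were used.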

Additional observations from a re-analysis of the deposited data

How the results depend on the processing

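The number of members called was 1 in the gene body, 1 in the TSS region and 0 for the pausing index. It was 2 with DESeq2 on recovered reads in the gene body (*Dnmt1* and *Uhrf1*) and 2 in the TSS region (*Uhrf1* and *Uhrf2*). In the TSS region it was 0 with no filter on low values and 0 with eBayes without a trend; over all genes, 0 were then called as well. When single libraries were left out, it ranged from 0 to 2 in the gene body and from 0 to 2 in the TSS region. Over all tested genes, the count in these fits ranged from 0 to 836 in the gene body and from 1 to 408 in the TSS region. Same-numbered Ctrl and Kmt5b sKO libraries had correlations of -0.153, -0.165 and -0.329 in their gene body deviations from the group means. With 3 libraries per group these deviations are bound to one another, so the values cannot show whether replicate numbers pair the libraries. With a replicate block, 0 members were called in the gene body and 0 in the TSS region, and 0 genes in all. The adjusted p of *Uhrf1* under the replicate block was 0.247 in the gene body and 0.164 in the TSS region; over the alternatives that kept all libraries it ranged from 9.43e-06 to 0.247 and from 0.00787 to 0.379.

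*Uhrf1* and *Dnmt1* had lower values in Kmt5b sKO under all alternatives in both regions; the log2 fold change of *Uhrf1* ranged from -1.37 to -1.03 in the gene body and from -1.53 to -0.89 in the TSS region. Counts over all genes also varied, with 748 called in the gene body by edgeR and 1296 by DESeq2, against 372 by limma. Signs changed for values near 0 when a library was left out, over ranges of log2 fold change from -0.218 to 0.0991 for *Dnmt3b* in the TSS region and, for the pausing index, from -0.192 to 0.225 for *Dnmt1*, from -0.21 to 0.162 for *Uhrf1* and from -0.0216 to 0.446 for *Tet2*. The libraries were Ctrl replicate 1 and Kmt5b sKO replicates 1 and 3 for *Dnmt3b* (0.0676, 0.0671 and 0.0991), Ctrl replicates 1 and 2 and Kmt5b sKO replicate 2 for *Dnmt1* (-0.0026, -0.192 and -0.077), Ctrl replicate 3 and Kmt5b sKO replicate 1 for *Uhrf1* (0.154 and 0.162), and Ctrl replicate 2 for *Tet2* (-0.0216). The cause of these changes was not tested. The same alternatives were applied to the gene lists after seeing the data: the S phase count in the gene body ranged from 8 (no filter) to 21 (DESeq2) outside the replicate block, which gave 0, and outside the fits without a library. With 0 to 3 reads in the TSS region of *Tet1* and 9 to 22 in that of *Dnmt3a*, depth limits what can be said of these starts.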
